A study of Homo sapiens with 4 samples.

Results

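EBC-CR3 and EBC-CR1 are a pair of capmatinib-resistant lines grown out of EBC-1, and the comparison described here is the log2 level of each gene in EBC-CR3 minus that in EBC-CR1. Genes were taken if they reached 9 normalized units in either library (log2 of 10 after 1 unit is added), which 14105 of 26364 gene symbols did. HBB, HBA1, HBA2, GYPC and FCGR3B were set aside as possible blood RNA, which left 14100 genes. EBC-1 is a human lung squamous cancer line with amplified MET, the gene of the receptor tyrosine kinase that capmatinib inhibits, and it was at passages 35 to 37. EBC-CR1 was selected in stepwise doses up to 1.5 µmol/L capmatinib and taken at passages 64 to 66. EBC-CR3 was selected up to 2.4 µmol/L and taken at passages 81 to 83, as was EBC-CR2, selected up to 2.2 µmol/L. All 3 resistant lines were then kept in 1 µmol/L capmatinib. Dose and passage therefore differ together between EBC-CR3 and EBC-CR1 and cannot be told apart. The sources used here give neither the clonality of the lines nor the presence of drug at harvest.

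Each line has 1 library, so no p-value is given, and a difference cannot be set against the spread between replicates. In its place each ratio carries a 95% counting interval, from estimated reads, which covers counting error only. The column headers do not match the labels: EBC-R3 heads the values of EBC-CR1, and EBC-R1 those of EBC-CR3. The labels are followed throughout, and should the headers hold instead, every difference between these 2 lines would change sign. Levels are log2(units + 1); where 4 levels stand without names the order is EBC-1, EBC-CR1, EBC-CR2, EBC-CR3, and where 2 do it is EBC-CR1, EBC-CR3. Single values called differences are EBC-CR3 minus EBC-CR1 on that log2 scale. Estimated depth was 21.3 M reads in EBC-CR1 and 22.9 M in EBC-CR3, against 36.3 M in EBC-1 and 19.1 M in EBC-CR2.

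MET drives the RAS-ERK and PI3K cascades. ERK signalling induces immediate early transcription factors such as FOS and EGR1 together with its own inhibitors of the DUSP and SPRY families. NF-kB is a transcription factor family that induces chemokines and interleukins, and tumour cells under ERK or NF-kB signalling often secrete them. Hypoxia-inducible factors bind DNA with the core ACGTG and induce genes of glucose uptake, glycolysis and angiogenesis when oxygen is low. The SREBP factors induce the enzymes of cholesterol synthesis when cell sterols are low.

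Markers of the cell type were checked first. Of 10 genes of the squamous lung line list, 9 passed the floor, among them CDH1, at 14.28 in EBC-CR1 and 14.47 in EBC-CR3, and KRT18, at 14.09 and 14.10. KRT5, a defining basal keratin, was listed at 0 in all 4 libraries. The 3 haemoglobin genes were high in 1 library only: HBB was at 13.90, HBA2 at 11.61 and HBA1 at 9.21 in EBC-CR1, and all were listed at 0 elsewhere. The other genes set aside, FCGR3B (6.15) and GYPC (5.73), were likewise listed at 0 in the other libraries. Of 17 red blood cell markers, 12 were above 0 in EBC-CR1 and 1 in EBC-CR3. Of 32 leukocyte markers, 22 were above 0 in EBC-CR1 and 9 in EBC-CR3, while their summed level was 2892.5 units in EBC-CR1 and 3371.25 in EBC-CR3. That sum rests mostly on LCP1 (10.77 and 11.08), ITGB2 (9.23 and 9.18) and CD68 (8.48 and 9.20) and does not show the direction of the lower members. PTPRC, which marks all leukocytes, was at 1.46 in EBC-CR1 and 0 in the other libraries. ALAS2 (4.86) was listed at 0 in EBC-CR3 and remains among the genes lower there. With both marker lists left out, 1063 genes were 2-fold or more higher in EBC-CR3 and 1011 lower; the other counts below were not recomputed without them.

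EBC-CR3 and EBC-CR1 were the closest pair among the resistant lines. The pair was taken up here as the closest in these same data, so the counts below describe that choice and do not test it. At 2-fold or more, 2082 of 14100 genes differed, a share of 14.8%, with 1063 genes higher in EBC-CR3 (7.54%) and 1019 lower (7.23%). The same count was 4595 of 14237 genes (32.3%) for EBC-CR2 against EBC-CR1 and 3866 of 14184 (27.3%) for EBC-CR2 against EBC-CR3. By direction these were 2237 genes higher in EBC-CR2 than in EBC-CR1 (15.7%) and 2358 lower (16.6%), and 1890 higher than in EBC-CR3 (13.3%) and 1976 lower (13.9%). Against the parental library, 3956 of 14329 genes differed in EBC-CR1 (27.6%; 13.5% higher, 14.1% lower) and 4579 of 14287 in EBC-CR3 (32.1%; 15.6% higher, 16.4% lower). The pairs share libraries, so the counts are not independent of each other. The median absolute log2 difference was 0.39 between EBC-CR3 and EBC-CR1, against 0.64 and 0.56 for the pairs with EBC-CR2. Differences of 4-fold or more numbered 595 (4.22%), against 1557 (10.9%) and 1352 (9.53%).

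Low genes carried much of the count. Below 50 units, 41.5% of 2518 genes differed by 2-fold or more, between 50 and 200 units 17.5% of 2759, between 200 and 1000 units 7.31% of 4517, and from 1000 units 5.2% of 4306. In that highest class the share was 25.7% for EBC-CR2 against EBC-CR1 and 17.7% for EBC-CR2 against EBC-CR3, so the pair was the closest among well measured genes too. The counting interval left out a ratio of 1 for 1007 of the genes higher in EBC-CR3 and 918 of those lower. It lay wholly past 2-fold for 486 and 374. Just inside the floor, AATK and ADGRG3 were at the floor of 9 units in EBC-CR1 and 0 in EBC-CR3. Just outside it, A1CF and ABCC9 were at 3.29 in EBC-CR3 and 0 in EBC-CR1.

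**Figure D1:**
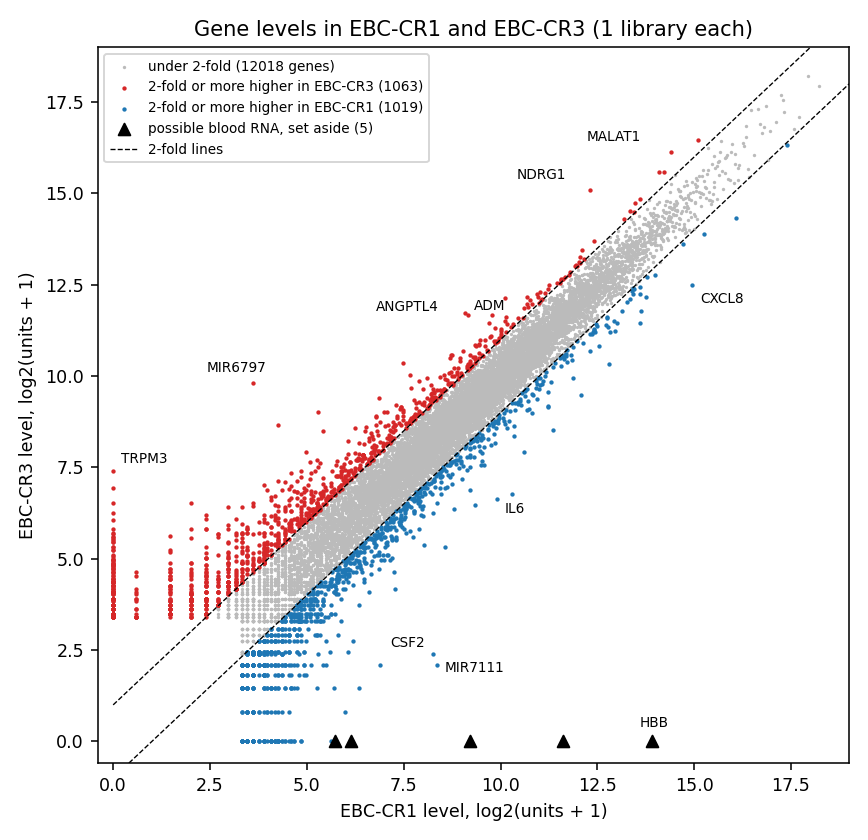
Level of each gene in EBC-CR1 (horizontal axis) and EBC-CR3 (vertical axis), both as log2(units + 1), 1 point per gene and 1 library per line. Red points are 1063 genes 2-fold or more higher in EBC-CR3, blue points 1019 lower there, grey points the rest, and black triangles the 5 possible blood genes, all at 0 in EBC-CR3; the spread across the dashed 2-fold lines is widest at low levels.

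MET itself was at 15.34 in EBC-CR1 and 15.52 in EBC-CR3, a difference of 0.19. Its ligand HGF was listed at 0 in every library. The receptor genes EGFR (0.38), ERBB2 (0.05), ERBB3 (0.60) and AXL (0.34) and the kinase gene PIK3CA (0.78) all differed by less than 2-fold. Among 21 receptor kinase genes past the floor, 2 were higher (9.52%) and 1 lower (4.76%) in EBC-CR3, near the 7.54% and 7.23% of all genes. EPHA2, an ephrin receptor, was at 11.86 in EBC-CR1 and 9.94 in EBC-CR3, beside 11.98 in the parental line and 10.86 in EBC-CR2. FGFR4, a fibroblast growth factor receptor, was at the floor in EBC-CR1 and at 5.46 in EBC-CR3. NTRK2, the receptor of brain-derived neurotrophic factor, was at 0 in EBC-CR1 and 3.49 in EBC-CR3, at least 3.42-fold higher against a limit of 3 reads. It passed the floor only through EBC-CR3, so it had to count as higher.

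The hypoxia list differed most in the direction of EBC-CR3. Of its 25 members past the floor, 13 were 2-fold or more higher in EBC-CR3 and 0 lower, against 7.54% and 7.23% of all genes, with a median log2 difference of 1.02 (-0.01 over all 14100 genes). The counting interval left out 1 for all 13. Against EBC-1, the median was -0.13 for EBC-CR1, 0.43 for EBC-CR2 and 0.87 for EBC-CR3; these values share the EBC-1 library. EBC-CR1 was the lowest of the 4 libraries for 11 members and EBC-CR3 the highest for 11; over all genes those shares were 21.2% and 20.4%. This list was chosen with earlier results of these data known.

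ADM encodes adrenomedullin, a vasodilator peptide. It was at 8.83 (parental), 9.17 (EBC-CR1), 11.15 (EBC-CR2) and 11.66 (EBC-CR3), a difference of 2.5 (interval 2.36 to 2.64). EBC-CR1 stood with the parental line and EBC-CR3 with EBC-CR2. NDRG1, a stress-responsive gene, was at 13.94, 12.31, 15.25 and 15.10 in the same order, a difference of 2.78 (2.74 to 2.83). ANGPTL4, an inhibitor of lipoprotein lipase, was at 12.17, 9.08, 10.74 and 11.73, a difference of 2.65 (2.51 to 2.80). For these latter genes EBC-CR1 was the lowest library, below the parental line as well.

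EGLN3 encodes a prolyl hydroxylase that marks hypoxia-inducible factors for degradation. Its level was 7.23 (parental), 6.88 (EBC-CR1), 10.89 (EBC-CR2) and 8.73 (EBC-CR3). ANKRD37 was at 6.81 in EBC-CR1 and 8.51 in EBC-CR3, and BNIP3, a mitophagy receptor, at 9.44 and 10.84. PDK1, which restrains pyruvate entry into the mitochondrion, was at 8.29 and 9.53, and the collagen prolyl hydroxylase gene P4HA1 at 13.35 and 14.53. Other members of the list differed less: VEGFA, the angiogenic factor, differed by 0.28 and STC2 by -0.27. HIF1A, the gene of the factor itself, was at 13.41 in EBC-CR1 and 12.75 in EBC-CR3, a difference of -0.66, the lowest of the list.

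The start regions of these genes are shown because ACGTG is the core that hypoxia-inducible factors bind. Each line gives a stretch of 100 bases upstream of a start site, not always next to it, 5′ to 3′ on the gene's strand. The last match ends 138 bases before the start for ANKRD37, 128 for BNIP3 and 3 for PDK1. Capitals mark ACGTG on either strand, and the palindrome CACGTG holds 2 overlapping matches. The sequences are RefSeq's on GRCh38.p14, whereas hg19 is named for the files, so no file coordinate is mixed with them. ANKRD37 lies at chr4:185396658-185396757 (plus strand), BNIP3 at chr10:131981997-131982096 (minus strand) and PDK1 at chr2:172555990-172556089 (plus strand).
ANKRD37: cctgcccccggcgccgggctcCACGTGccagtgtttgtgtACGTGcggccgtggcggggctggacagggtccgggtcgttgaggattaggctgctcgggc
BNIP3: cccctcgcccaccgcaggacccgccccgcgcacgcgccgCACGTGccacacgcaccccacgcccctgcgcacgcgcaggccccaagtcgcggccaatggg
PDK1: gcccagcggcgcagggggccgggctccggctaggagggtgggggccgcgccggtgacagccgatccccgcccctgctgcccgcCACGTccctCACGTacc

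Of 20 hypoxia members with a promoter in the RefSeq table, 10 held ACGTG within 250 bases before a start (50%), against 21.7% of all 27305 genes in it. The motif was present in 6 of the 10 members that differed by 2-fold or more and in 4 of the 10 that did not. ADM, with a difference of 2.5, had no match in this window. A match is a description of the letters only.

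Glycolysis followed the same direction with smaller differences. Of 22 members past the floor, 21 were higher in EBC-CR3 than in EBC-CR1, 6 of them by 2-fold or more and 0 lower by that much, with a median difference of 0.85. EBC-CR1 was the lowest of the 4 libraries for 15 members. ENO2, a neuronal enolase, was at 9.56 (parental), 8.73 (EBC-CR1), 9.22 (EBC-CR2) and 10.58 (EBC-CR3). HK2, the inducible hexokinase, was at 8.87 in EBC-CR1 and 10.10 in EBC-CR3, and ALDOC, an aldolase, at 6.38 and 7.74. The glucose transporter gene SLC2A3 (4.54 and 6.92) and the regulators PFKFB3 (11.14 and 12.28) and PFKFB4 (5.11 and 6.85) belong to the hypoxia list too, so the 2 counts are not separate. PFKM, the muscle phosphofructokinase, was the only member lower in EBC-CR3, at 11.43 against 10.98.

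**Figure D2:**
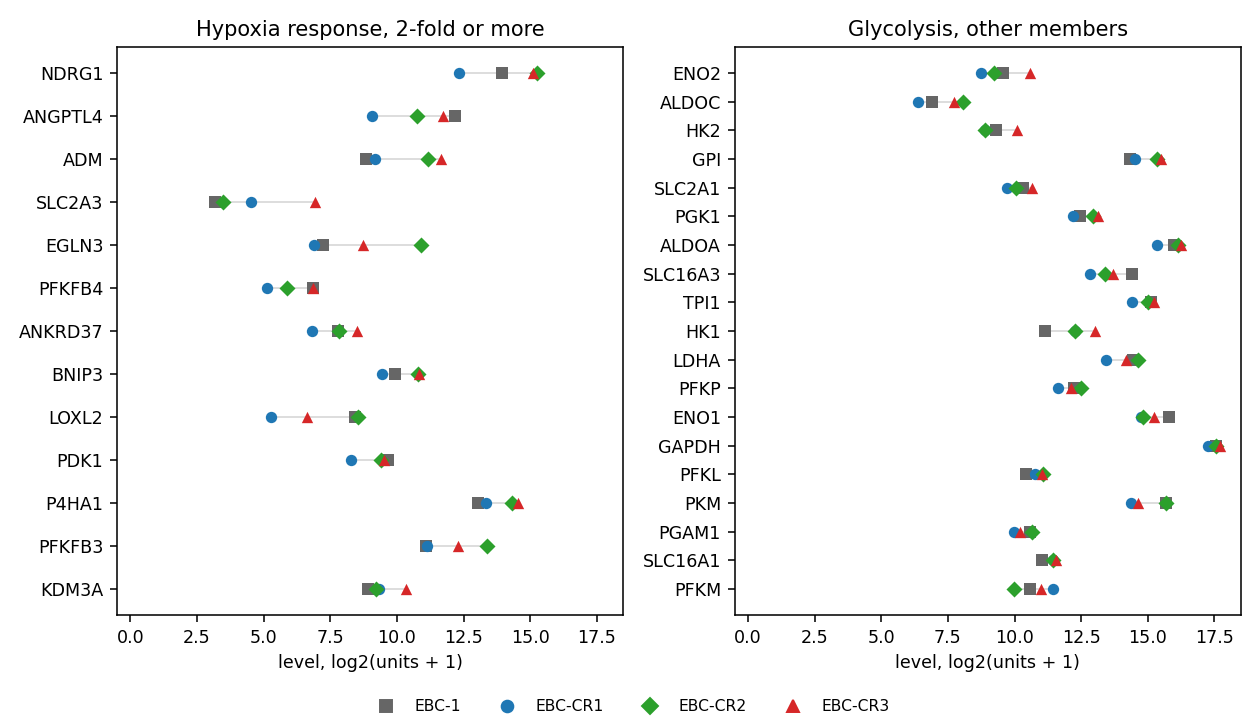
Levels as log2(units + 1) in EBC-1 (grey squares), EBC-CR1 (blue circles), EBC-CR2 (green diamonds) and EBC-CR3 (red triangles), 1 library each, for the 13 hypoxia genes 2-fold or more higher in EBC-CR3 than in EBC-CR1 (left) and for glycolysis genes not among them (right). Blue lies left of red in each row except that of PFKM, where EBC-CR1 is at 11.43 and EBC-CR3 at 10.98.

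Inflammatory genes differed in the opposite direction. Of 34 targets of NF-kB past the floor, 12 were 2-fold or more lower in EBC-CR3 than in EBC-CR1 and 0 were higher, with a median difference of -0.44 (background 7.23% lower). Against EBC-1 the list's median was 3.65 for EBC-CR1, 3.66 for EBC-CR2 and 3.24 for EBC-CR3, so most members were above the parental level in both lines of the pair. The 12 genes encode secreted proteins: CXCL2, CXCL3, CXCL5, CXCL6, CXCL8 and CCL20 are chemokines, IL1A, IL1B, IL6 and LIF are cytokines, and CSF2 and CSF3 are colony-stimulating factors. Leukocyte markers were also above 0 more often in EBC-CR1, as given above, and their part in these differences was not tested. Of the 9 leukocyte markers past the floor, 5 were lower in EBC-CR3 and 0 higher, with a median difference of -1.30. However, 4 of these 5 (LAPTM5, CSF3R, FPR1 and SRGN) passed the floor only through EBC-CR1. Being listed at 0 in EBC-CR3, they had to count as lower, so that count does not show a direction. Among all 2518 genes below 50 units, 540 were called lower. LAPTM5 was higher in the parental line (9.83) and in EBC-CR2 (7.99) than in EBC-CR1 (3.88). The neutrophil receptor genes FCGR3B (6.15), CSF3R (3.75), FPR1 (3.61) and CXCR2 (2.95) were present in EBC-CR1 but at 0 in EBC-CR3, while LYZ was at 0.58, CD14 at 2.39 and S100A12 at 0 in EBC-CR1.

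CXCL8, the neutrophil chemokine interleukin 8, was at 7.47 (parental), 14.95 (EBC-CR1), 11.80 (EBC-CR2) and 12.49 (EBC-CR3), a difference of -2.46 (interval -2.51 to -2.42). IL6 was at 3.81, 9.92, 7.27 and 6.64, a difference of -3.27 (-3.60 to -2.98). EBC-CR1 was the highest of the 4 libraries for both, and EBC-CR3 was near EBC-CR2 and above EBC-1. CSF2, which encodes GM-CSF, was at 4.92, 8.26, 1.46 and 2.39, so that EBC-CR3 lay below the parental line and EBC-CR1 above it. IL1A (1.46, 7.08, 8.69 and 5.10) and IL1B (4.25, 5.98, 8.90 and 4.63) were highest in EBC-CR2.

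Intracellular members of the list were close in the pair. NFKBIA, the feedback inhibitor of NF-kB, was at 14.62 in EBC-CR1 and 14.02 in EBC-CR3, and TNFAIP3, a ubiquitin-editing inhibitor, at 12.78 and 12.21. BIRC3, an inhibitor of apoptosis, was at 12.01 and 12.03, and RELB, a subunit of the factor, at 10.66 and 11.06. CCL2, a monocyte chemokine, was at 0 (parental), 9.44 (EBC-CR1), 4.36 (EBC-CR2) and 9.46 (EBC-CR3). Its level set the pair apart from the other libraries without differing within it. These intracellular genes, CCL2 and CXCL1 were picked after their values were seen.

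The CXC chemokine genes clustered on chromosome 4 did not share a difference. CXCL1 was at 6.08 (parental), 10.30 (EBC-CR1), 10.77 (EBC-CR2) and 10.23 (EBC-CR3), a difference of -0.07 between EBC-CR3 and EBC-CR1 (interval -0.20 to 0.05). CXCL2 was at 6.06, 12.80, 10.22 and 10.33, a difference of -2.47, and CXCL3 at 6.17, 13.59, 11.24 and 11.47, a difference of -2.13. CXCL5, less alike in sequence, was at 0.81, 8.57, 3.86 and 5.33, a difference of -3.24. CXCL1, CXCL2 and CXCL3 are close copies of each other, and the sources used here do not state how reads that match several were counted.

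Their start regions are printed to show how alike they are. Capitals mark a form of the kB site that NF-kB binds, GGG and TTTCC with any 2 bases between them, searched on both strands. The stretches, on GRCh38.p14, are chr4:73869274-73869373 (plus strand) for CXCL1, chr4:74099214-74099313 (minus) for CXCL2, chr4:74038709-74038808 (minus) for CXCL3 and chr4:73998709-73998808 (minus) for CXCL5.
CXCL1: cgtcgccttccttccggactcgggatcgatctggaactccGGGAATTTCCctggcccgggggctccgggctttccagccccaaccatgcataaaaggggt
CXCL2: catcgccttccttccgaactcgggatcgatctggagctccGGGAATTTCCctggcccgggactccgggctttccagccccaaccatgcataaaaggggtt
CXCL3: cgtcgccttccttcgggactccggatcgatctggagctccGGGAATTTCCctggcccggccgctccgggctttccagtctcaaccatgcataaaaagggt
CXCL5: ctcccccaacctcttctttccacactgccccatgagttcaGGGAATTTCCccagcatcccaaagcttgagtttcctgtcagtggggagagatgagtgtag

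Over the first 50 bases printed, which end with the match, CXCL1 and CXCL2 were the same at 47 positions, CXCL1 and CXCL3 at 47, and CXCL1 and CXCL5 at 24. All 4 matches have the same 10 letters, although CXCL1 differed by -0.07 and CXCL5 by -3.24. This kB motif was found in 15 of 27 NF-kB members with a promoter (55.6%), against 2.12% of all genes. It was present in 6 of the 10 that differed by 2-fold or more and in 9 of the 17 that did not. The motifs printed here came from 7 searched in 3 lists with results known; among the others, GCGTG, a further form of the hypoxia element, was in 11 of 20 hypoxia members (55%), 36.2% of all genes and 16 of 18 cholesterol members (88.9%), CACNCCAC, a sterol element, was in 4 of 18 cholesterol members (22.2%; 5.89% of all), and TGANTCA, the AP-1 site, in 2 of 27 NF-kB members (7.41%; 8.06% of all).

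ERK pathway output was lower in EBC-CR3. Of 20 members past the floor, 8 were 2-fold or more lower there and 0 higher, and 19 lay below 0, with a median difference of -0.93. Against EBC-1 the median was -0.31 for EBC-CR1, -0.35 for EBC-CR2 and -1.18 for EBC-CR3. EBC-CR3 was the lowest of the 4 libraries for 12 members, against 20.1% of all genes. SPRY4, an inhibitor of receptor kinase signalling, was at 6.19 (parental), 5.70 (EBC-CR1), 4.27 (EBC-CR2) and 0 (EBC-CR3), where it was at least 20.4-fold lower than in EBC-CR1 against a limit of 3 reads. DUSP6, the phosphatase that inactivates ERK, was at 13.09, 11, 12.01 and 9.64, a difference of -1.36 (interval -1.49 to -1.24). The parental library was the highest for both.

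The immediate early genes ordered the libraries differently. FOS was at 8.78 (parental), 11.23 (EBC-CR1), 11.34 (EBC-CR2) and 9.18 (EBC-CR3), and EGR1 at 11.30, 13.13, 13.23 and 11.79, so EBC-CR3 was near the parental line. EGR3 was at 5.98 in EBC-CR1 and 0.81 in EBC-CR3. IER3, an early response gene that both ERK and NF-kB induce, was at 16.09 in EBC-CR1 and 14.33 in EBC-CR3. ETV4, an ETS factor gene, was the member above 0, at 8.27 in EBC-CR1 and 8.71 in EBC-CR3, both below 11.11 in EBC-1. EREG, which encodes an EGFR ligand, was at 9.52 in EBC-CR1 and 7.90 in EBC-CR3.

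**Figure D3:**
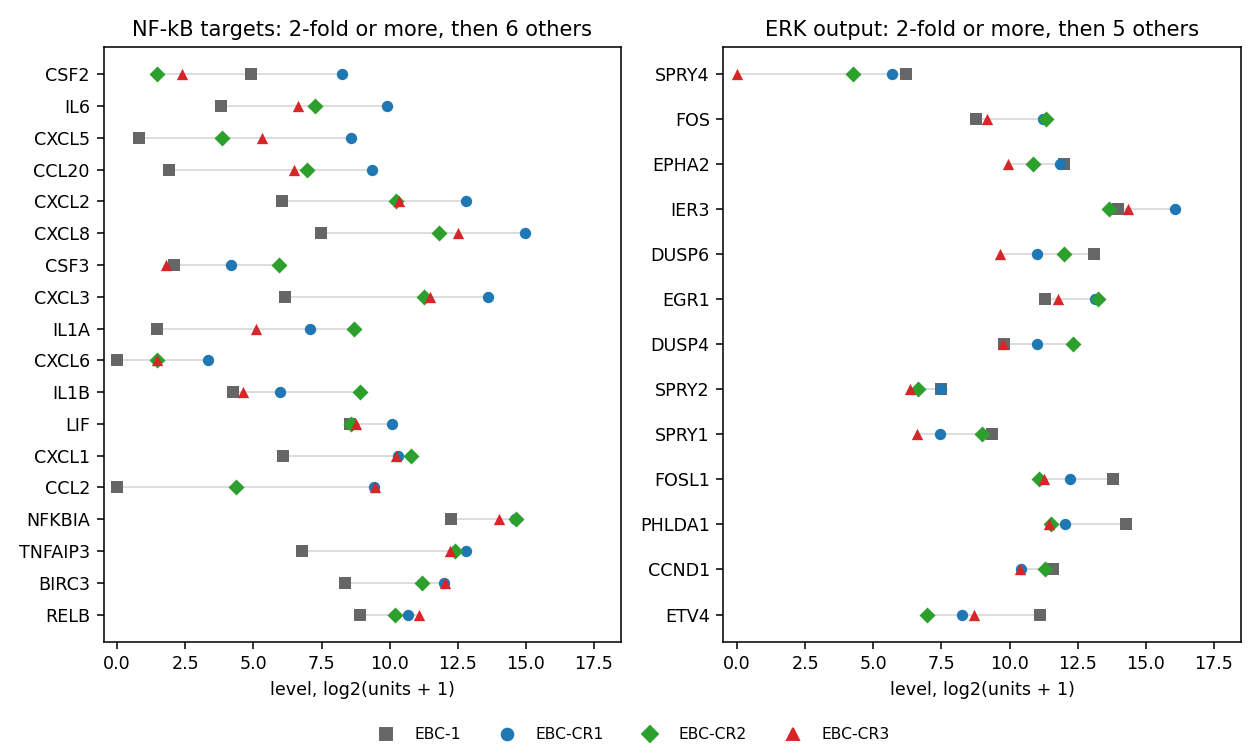
Levels as log2(units + 1) in EBC-1 (grey squares), EBC-CR1 (blue circles), EBC-CR2 (green diamonds) and EBC-CR3 (red triangles), 1 library each. The left panel has the 12 NF-kB targets 2-fold or more lower in EBC-CR3 than in EBC-CR1 and, below them, 6 others; the right panel has the 8 ERK output genes 2-fold or more lower and 5 others. CXCL8 stands at 14.95 in EBC-CR1 and 12.49 in EBC-CR3, while CXCL1 and CCL2 nearly coincide.

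A few targets of Notch and of the TGF-beta and BMP family differed, while the medians of their lists were near 0. NRARP, a feedback inhibitor of Notch, was at 6.61 (parental), 11.35 (EBC-CR1), 7.96 (EBC-CR2) and 8.53 (EBC-CR3), a difference of -2.81 (interval -2.99 to -2.65). HES1, a Notch effector, was at 10.51, 13.62, 12.80 and 11.79, and HES4 at 7.96, 9.22, 6.11 and 7.50. The Notch list of 13 members held these 3 lower genes and 1 higher, DTX4 (9.86 and 10.91), with a median difference of -0.11. ID3, an inhibitor of DNA binding that BMP signalling induces, was at 7.01, 11.22, 7.47 and 9.15, and ID1 at 13.53, 13.60, 13.82 and 12.26. BAMBI, a pseudoreceptor, was at 3.88 in EBC-CR1 and 0 in EBC-CR3. These are the 3 lower genes of 24 TGF-beta targets, of which 1 was higher, with a median difference of -0.02. EBC-CR1 was the highest library for NRARP, HES1, HES4, ID3 and BAMBI.

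Cholesterol synthesis was lower in EBC-CR3. Of 25 members past the floor, 5 were 2-fold or more lower there and 0 higher, 20 lay below 0, and the median difference was -0.65. EBC-CR3 was the lowest of the 4 libraries for 17 members. LSS, lanosterol synthase, was at 9.04 (parental), 7.96 (EBC-CR1), 8.29 (EBC-CR2) and 6.35 (EBC-CR3), a difference of -1.61 (interval -2.01 to -1.25). DHCR7, which makes cholesterol in the last step, was at 11.15 in EBC-CR1 and 10.01 in EBC-CR3, and INSIG1, the sterol sensor, at 10.09 and 9.0. Fatty acid synthesis had 3 of 17 members lower, among them FASN, the fatty acid synthase (11.18 and 10.11).

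Growth and stress lists had medians below 0, but several had a share of 2-fold lower members near the 7.23% of all genes. Among 43 DNA replication genes 37 lay below 0, but only 4 were 2-fold lower (9.30%), with a median of -0.43; MCM2, a helicase subunit, was at 13.38 in EBC-CR1 and 12.33 in EBC-CR3, and PCNA, the sliding clamp, at 12.47 and 11.42. Among 45 mitosis genes 2 were lower (4.44%), with a median of -0.28. Heat shock genes had 2 of 13 lower and a median of -0.59, with HSPA1A, an inducible chaperone, at 12.94 and 11.52. The list of ATF4 and serine synthesis genes had 7 of 33 lower, such as the amino acid transporter gene SLC7A5 (12.32 and 10.68), and 2 higher, NUPR1 (5.75 and 7.58) and VLDLR (5.62 and 6.99). NRF2 targets had 26 of 27 members below 0 and a median of -0.39, yet only 2 passed 2-fold (7.41%). Ribosomal protein genes (median 0.20, 1 higher and 1 lower of 78), respiratory chain genes (-0.07, 1 and 3 of 70) and endoplasmic reticulum chaperones (-0.11, 0 and 0 of 22) were close in the pair.

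**Figure D4:**
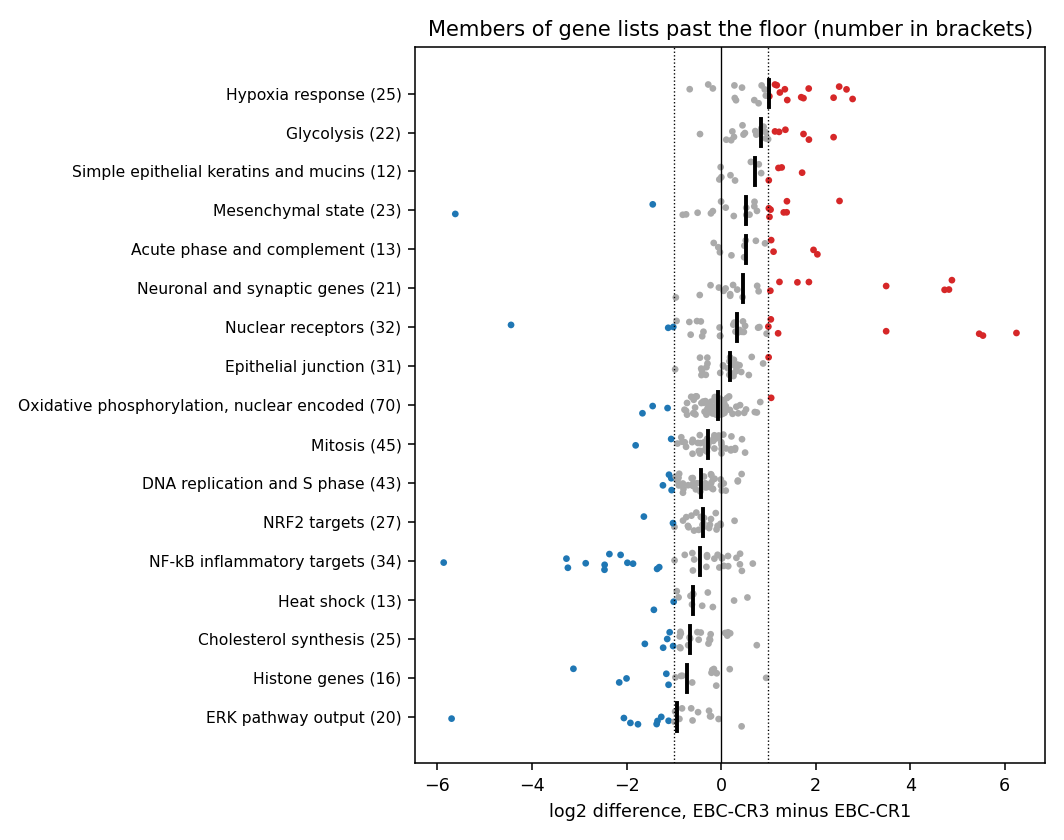
Log2 difference, EBC-CR3 minus EBC-CR1, of each member past the floor for 17 gene lists, with the number of members in brackets. Red points are 2-fold or more higher in EBC-CR3, blue points lower, black bars list medians, the solid line the median of all 14100 genes (-0.01) and dotted lines 2-fold; medians run from -0.93 (ERK pathway output) to 1.02 (hypoxia response), and lists share some members.

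Genes of epithelial and mesenchymal identity were mixed. Of 12 simple epithelial keratin and mucin genes, 4 were higher in EBC-CR3 and 0 lower: MUC1 (9.20 and 10.42), MUC4 (7.44 and 9.15), MUC20 (8.22 and 9.50) and KRT86 (4.36 and 5.37). MUC4 was higher than in EBC-CR1 in each other library, at 9.59 in the parental line and 10.75 in EBC-CR2. Of 23 mesenchymal genes 7 were higher (30.4%) and 2 lower (8.70%), against 7.54% and 7.23% of all genes. ZEB1 and ZEB2 passed the floor only through EBC-CR3, and POSTN only through EBC-CR1, so the direction of these genes was set by the floor. ZEB1, a repressor of epithelial genes, was at 5.43 (parental), 2.95 (EBC-CR1), 2.91 (EBC-CR2) and 5.46 (EBC-CR3). SNAI2, another such repressor, went the other way, at 6.86, 9.22, 6.58 and 7.77. Of 14 squamous differentiation genes past the floor, 5 were lower in EBC-CR3 and 2 higher, with a median difference of -0.75. With a floor of 50 units that median was -0.14, so it rests on low genes. KRT17 and SPRR1A passed the floor only through EBC-CR1. Lower members included KRT17 (3.61 and 0), a basal keratin gene, SPRR1A (4.44 and 2.46), a cornified envelope gene, and PI3 (6.53 and 4.88), which encodes the protease inhibitor elafin. The 2 higher members were the regulators TP63 (0, 6.65, 11.32 and 8.43) and SOX2 (6.45, 9.33, 9.25 and 10.85). NKX2-1, a lineage factor of lung adenocarcinoma, was at 1.91, 3.88, 3.61 and 6.08, while the surfactant gene SFTPC was listed at 0 throughout. In bulk RNA, fewer cells of a type and less RNA per cell cannot be told apart.

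Complement and acute phase genes were somewhat higher in EBC-CR3, 4 of 13 by 2-fold or more and 0 lower, with a median difference of 0.52. SERPINA1, alpha-1 antitrypsin, was at 11.26 (parental), 10.11 (EBC-CR1), 11.86 (EBC-CR2) and 12.14 (EBC-CR3). C1R, a complement protease, was at 4.88, 7.91, 11.18 and 9.86. SAA1, an acute phase protein, was at 2.46, 12.58, 14.61 and 13.10, a difference of 0.52 within the pair. EBC-CR2 was the highest library for C1R and SAA1, and EBC-CR3 was above EBC-CR1 for all 3.

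A set of genes was present in EBC-CR3 and listed at 0 in EBC-CR1. There were 154 such members, of which 21 reached a log2 level of 5 in EBC-CR3, and 90 members listed at 0 in EBC-CR3, of which 2 did so in EBC-CR1. Against a limit of 3 reads, 37 of the former and 11 of the latter were at least 8-fold apart. TRPM3, a calcium-permeable channel gene, was at 4.51 (parental), 0 (EBC-CR1), 0 (EBC-CR2) and 7.42 (EBC-CR3), at least 56.6-fold higher than in EBC-CR1. KCNJ16, a potassium channel gene, was at 2.86, 0, 0 and 6.93, at least 40.4-fold higher. ESR1, the oestrogen receptor alpha gene, was at 0, 0, 7.52 and 6.25, at least 25-fold higher. RARB, a retinoic acid receptor gene, was at 0, 0, 3.29 and 5.54, and HIF3A, a hypoxia-inducible factor subunit that was not on the hypoxia list, at 3.70, 0, 0 and 6.06. Of 154 such genes, 99 were above 0 in EBC-1 and 70 in EBC-CR2.

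Neuronal and synaptic genes were found among these. Of 21 past the floor 8 were higher in EBC-CR3 and 0 lower, with a median of 0.46. Of all 2518 genes below 50 units, 504 were called higher. In addition, 4 of the 21 were listed at 0 in EBC-CR1 and so passed the floor only through EBC-CR3, where they had to count as higher. NCAM1 (2.00 and 3.61) was below the floor in EBC-CR1 and likewise passed only through EBC-CR3, so its direction was set by the floor. GRIN2A, a glutamate receptor subunit gene, was at 1.46 (parental), 0 (EBC-CR1), 0 (EBC-CR2) and 4.88 (EBC-CR3). KCNMA1, a potassium channel gene, and DCX, doublecortin, were at 4.82 and 4.73 in EBC-CR3 and at 0 in the other 3 libraries. Nuclear receptors had 7 of 32 higher (21.9%) and 3 lower (9.38%), against 7.54% and 7.23% of all genes. The receptor genes ESR1, RARB, NR5A2 and HNF4A were listed at 0 in EBC-CR1, and NR1H4 and NR1I3 at 0 in EBC-CR3. Each passed the floor only through the other line of the pair, so its direction was set by the floor. NR2F1, an orphan receptor gene, was at 10.63, 9.44, 9.68 and 10.65. NR1H4, the bile acid receptor gene, was at 4.44 in EBC-CR1 and 0 in the other 3 libraries.

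Among genes from 1000 units, chosen after values were seen, the leading ones higher in EBC-CR3 included C10orf10 (7.47 and 10.36), EDN2, which encodes endothelin 2 (7.67 and 10.03), MALAT1, a nuclear noncoding RNA (14.41 and 16.14) and AKAP12, a kinase anchoring protein gene (14.09 and 15.59). AKAP12 was at 11.22 in the parental line and 12.05 in EBC-CR2, so both lines of the pair stood above those libraries. The leading ones lower included LPCAT4, a lysophospholipid acyltransferase gene (10.29 and 6.76), PRSS22, a serine protease gene (10.61 and 7.92) and SMN2 (12.96 and 11.24), a near-identical copy of SMN1 whose reads cannot be assigned surely. POSTN, periostin, a matrix protein gene and one of the fibroblast markers, was at 2.64 (parental), 5.62 (EBC-CR1) and 0 in both EBC-CR2 and EBC-CR3; in EBC-CR3 it was at least 19.3-fold lower than in EBC-CR1; the fibroblast markers DCN and LUM were listed at 0 throughout.

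Small noncoding RNA genes stood out in the lower direction. Of 31 snoRNA genes past the floor, 21 were 2-fold or more lower in EBC-CR3 (67.7%) and 0 higher, and 30 lay below 0, with a median difference of -1.49. The share among protein-coding genes was 6.31% lower, and 20.5% among 1826 protein-coding genes below 50 units, the class that held 25 of the snoRNA genes. Median levels were 4.36 in EBC-CR1, 3.29 in EBC-CR3, 3.61 in EBC-1 and 2.70 in EBC-CR2. The floor was set on the pair only, and most of these genes passed it only through EBC-CR1. The order of these medians therefore does not show in which library the class was highest. SNORA12, which guides pseudouridylation, was at 9.49 in EBC-CR1 and 7.57 in EBC-CR3, with 610 and 179 estimated reads. SNORD26 was at 9.21 and 6.89. SNORA24, a low one, was at 4.27 and 3.91, with 16 estimated reads in each. The kit primes on poly(A), which mature snoRNAs lack.

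Most snoRNAs lie in introns of other genes. For 30 of the 31 a gene past the floor spans the same place in RefSeq, 29 such genes in all, of which 2 were higher, 1 lower and the median difference -0.09. In 31 of 32 pairs the snoRNA gene had the lower difference. Most of these snoRNA genes passed the floor only through EBC-CR1, which leans their differences downward, so the count is not free of that choice. SNHG25 was at 9.70 in EBC-CR1 and 11.45 in EBC-CR3 while SNORD104 within it was at 7.53 and 6.15. RABGGTB, at 10.81 and 9.0, was the exception, with SNORD45A at a difference of 0.03. The sources used here do not state how strand was handled, so overlapping genes may share reads.

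**Figure D5:**
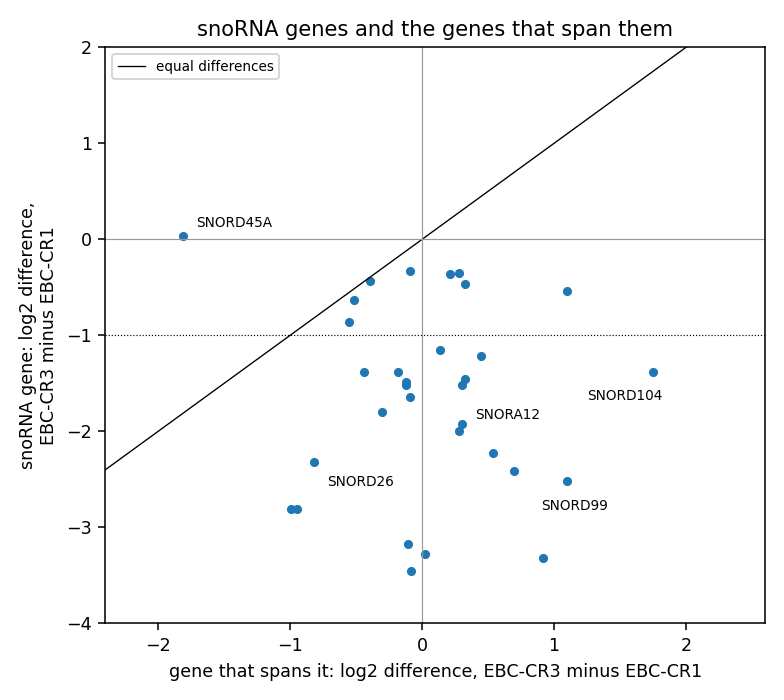
Log2 difference, EBC-CR3 minus EBC-CR1, of 30 snoRNA genes (vertical axis) against that of the gene that spans each (horizontal axis), 1 point per pair, 32 pairs. All points but SNORD45A lie below the line of equal differences; the dotted line is 2-fold lower.

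Genes named for microRNAs need the same caution, since their values are 3′-end reads at the hairpin's place and not mature microRNA. Of 36 past the floor 4 were higher (11.1%) and 14 lower (38.9%), against 7.54% and 7.23% of all genes. Their median levels were low, 4.91 in EBC-CR1 and 4.35 in EBC-CR3, and 41.5% of all genes below 50 units differed by 2-fold or more. MIR570, MIR4741 and MIR7111 passed the floor only through EBC-CR1, so the count is not free of that choice. MIR6797, which overlaps the ribosomal protein gene RPS19, was at 3.61 in EBC-CR1 and 9.81 in EBC-CR3, while RPS19 was at 13.78 and 14.58. MIR7111, which overlaps RPL10A, was at 8.35 and 2.09, while RPL10A was at 13.17 and 13.60. MIR147B was at 12.08 and 9.50, and C15orf48, which it overlaps, at 15.75 and 15.11. In each case the large difference of the microRNA gene was not shared by the gene around it.

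The pair also stood together apart from the other libraries in some genes. Genes within 2-fold of each other in EBC-CR1 and EBC-CR3 and at least 4-fold from both EBC-1 and EBC-CR2 numbered 135 higher and 88 lower. The same count was 17 and 51 for EBC-CR1 with EBC-CR2, and 13 and 27 for EBC-CR2 with EBC-CR3. The pair was taken up as the closest, and a closer pair tends to have more genes within 2-fold of each other. These counts are therefore not separate from its closeness. RBMS3, an RNA-binding protein gene, was at 2.46 (parental), 10.93 (EBC-CR1), 3.86 (EBC-CR2) and 11.75 (EBC-CR3). CELF2, a splicing regulator gene, was at 4.09, 10.98, 4.27 and 10.40. ATRNL1 was at 6.34 and 6.27 in the pair and 0 in the other libraries. GJB5, a connexin gene, was at 7.22, 0, 7.74 and 0, and ADGRF4 at 6.38, 0, 8.76 and 0. HPGD, the prostaglandin-degrading enzyme gene, was at 5.41, 0, 5.88 and 0.

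The parental library was within 2-fold of EBC-CR1 only for 1751 of all 14100 genes (12.4%) and of EBC-CR3 only for 1068 (7.57%), and genes that differed in the pair had the same lean. Of the 1063 genes higher in EBC-CR3, EBC-1 was within 2-fold of EBC-CR1 only for 325, of EBC-CR3 only for 262, of both for 172 and of neither for 304. Of the 1019 lower ones the numbers were 386, 200, 175 and 258. EBC-CR2 was within 2-fold of EBC-CR1 only for 281 and of EBC-CR3 only for 312 of the higher genes, and for 234 and 361 of the lower ones. Neither other library therefore sided with 1 line throughout.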

How the data were processed

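Per the labels' protocols, 500 ng of total RNA from each of 4 cultures went into Lexogen QuantSeq libraries, which read the 3′ ends of transcripts. The submitters' processing notes list Bowtie2, edgeR and hg19 with no version or role. Each deposited value is a log2 level, taken as log2(x + 1), for 1 symbol in 1 library. With the logarithm undone, levels under 500 units were whole multiples of 0.25 (to within 0.0025), and the libraries shared nearly the same sorted values and totals of 25.0 M units, a form that quantile normalization of counts gives. This is inferred from the values; they are not counts, and differences in RNA content between lines cannot be seen.

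The members and gene lists were chosen with earlier results of these data known. Differences were taken between log2(x + 1) values, which understates low genes, and called at 2-fold. Reads were estimated by taking the k-th distinct value above 0 as k reads up to 500 and the scale reached there above it, because units per read were not constant: 0.875 at 10 reads and 1.09 at 500 in EBC-CR3, 1.13 and 1.18 in EBC-CR1. Exact binomial (Clopper-Pearson) 95% intervals of ratios came from these reads; 3 reads were 3.0 units in EBC-CR1 and 2.5 in EBC-CR3. The intervals treat reads as independent molecules, which they may not be. Folds against a listed 0 use the limit of 3 reads and are lower bounds.

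Named genes were the 15 highest and 15 lowest by the interval bound nearest 0, up to 4 members per list by absolute difference, 7 fixed signalling genes, leading shared and opposite genes, leading genes of neighbour windows, 2 genes on each side of the floor, and others stated as chosen after values were seen; some genes of this rule are not reported here. Of 53 lists, those with at least 5 members past the floor were summarised. RefSeq (GRCh38.p14) gave gene types, spans, neighbour order and promoters. Computations ran in Python 3.11.15 (numpy 2.4.6; scipy 1.17.1; pandas 2.3.3; figures with matplotlib 3.10.9), and the scripts were tested on simulated data. Alternatives were a pseudocount of 5, no floor, a floor of 50 units, median centring, the blood genes kept, an interval criterion, windows of 21 and 61 genes and an 8-fold gap. Scaling by each library's estimated read total, leaving out both blood marker lists and using protein-coding genes only were added after seeing the data.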

Additional observations from a re-analysis of the deposited data

Results flagged for a closer look

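For 10 genes the listed values of the pair, zeros included, lay on opposite sides of EBC-1 by at least 2-fold each. With 1 library a line, the differences were not tested. These 10 lead 87 genes with EBC-CR3 above and EBC-CR1 below EBC-1, and 38 with the reverse, each ordered by the smaller of both folds. On the log2(x + 1) scale, EBC-CR3 minus EBC-CR1 was 7.42 for TRPM3, 6.93 for KCNJ16, 5.81 for JAKMIP2, 5.33 for PTGFR, a prostaglandin receptor gene, and 5.25 for AFF2. All 5 were listed at 0 in EBC-CR1, and TRPM3, KCNJ16, PTGFR and AFF2 were listed at 0 in EBC-CR2 too. In EBC-1, TRPM3 was at 4.51, KCNJ16 and JAKMIP2 at 2.86, and PTGFR and AFF2 at 2.46. For the low ones, a 0 in EBC-CR1, which had fewer estimated reads, does not show a 2-fold fall below EBC-1.

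In the reverse direction the difference was -5.87 for CSF2, -5.62 for POSTN, -4.80 for MIR6805, which overlaps RPL28, -4.27 for PLA2G7, a lipoprotein-associated phospholipase gene, and -3.88 for LOC102724596. POSTN, PLA2G7 and LOC102724596 were listed at 0 in EBC-CR3. In EBC-1 they were at 2.64, 1.91 and 1.91, near its limit of 3 reads (2.75 units), so a 2-fold fall below EBC-1 is not shown for them. Because differences from 0 depend on the added unit, the differences given here are not fold bounds.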

How the results depend on the processing

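No paired analysis was possible because each line has 1 library. With no floor, 3872 genes differed by 2-fold or more (1897 higher in EBC-CR3, 1975 lower), and with a floor of 50 units 1038 (559 higher, 479 lower). For EBC-CR2 against EBC-CR3 the floor of 50 units gave 2541 genes (1254 higher, 1287 lower). EBC-CR3 against EBC-CR1 had the fewest genes apart of the 3 resistant pairs as reported and under the 4 alternatives run on all of them. Scaled by each library's estimated read total, 1164 genes were higher and 808 lower (59.0% higher, against 51.1%), and the median over all genes was 0.02. The median of the histone genes was -0.72 and became -0.20 with a floor of 50 units. That of the squamous differentiation genes went from -0.75 to -0.14. The causes were not tested. The lowest window median was -0.35 over 41 genes and -0.79 over 21. With an 8-fold gap, the genes shared apart fell from 223 to 88 for EBC-CR1 with EBC-CR3, from 68 to 24 for EBC-CR1 with EBC-CR2 and from 40 to 13 for EBC-CR2 with EBC-CR3. Over 45 lists and 4 alternatives, 2 of 180 medians changed sign, neither of a list whose median was past 0.2 as reported. None of 248 named genes changed sign where it had passed 2-fold. Replacing listed zeros by the limit of 3 reads moved 0 of these 45 medians by over 0.1. A member listed at 0 in 1 line stays past 2-fold after the replacement, while nearly all list medians lie within 2-fold. The replacement could therefore hardly move them and does not test them. With 1 library a line, no setting can stand in for replicates.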

Other observations

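Genes that differed in the pair had different genomic spans in RefSeq. The median span was 30.4 kb for genes higher in EBC-CR3, 16.6 kb for those lower and 28.6 kb over all matched members (96.5% or more matched in each set). From 200 units the medians were 27.5, 14.5 and 30.0 kb. Genes listed at 0 in EBC-CR1 had a median span of 76.1 kb, and those listed at 0 in EBC-CR3 24.2 kb.

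Neighbouring genes showed no broad block of difference. Over 9333 windows of 41 neighbouring genes above 100 units, medians ran from -0.35 (HERC2P9 to C15orf57) to 0.31 (PJA1 to SRPX2), and 0 passed 0.5. Over 21 genes the lowest was -0.79, from CPT1C to SNAR-A10, a window with 8 SNAR-A copies that share 1 listed value in several cases.

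Interferon response genes had 4 of 36 higher (11.1%) and 2 lower (5.56%), near the 7.54% and 7.23% of all genes: IFIT1 was at 7.40 in EBC-CR1 and 9.10 in EBC-CR3, GBP2 at 8.75 and 10.57, and HERC5 at 3.88 and 0. HOX genes had 2 of 17 higher and 5 lower, with a median of 0.31 and 10 of 17 above 0, while of all 2518 genes below 50 units 504 were called higher and 540 lower. Lower ones included HOXD4 (5.11 and 2.09) and HOXA7 (4.54 and 2.91), given as EBC-CR1 and EBC-CR3. All 5 lower HOX genes were below the floor in EBC-CR3 and passed it only through EBC-CR1. HOXA10 (2.95 and 4.38), 1 of the 2 higher, passed only through EBC-CR3. The direction of these genes was thus set by the floor, and the interval of HOXC11 (-3.77 to 0.22) took in no difference. Growth factor ligands had 4 of 20 higher (20%) and 1 lower (5%), against 7.54% and 7.23% of all genes. FGF1, a fibroblast growth factor gene, was at 6.05 and 8.23, IGF1 at 2.00 and 4.88 and NRG2 at 0 and 4.25. IGF1 and NRG2 passed the floor only through EBC-CR3, where they had to count as higher.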
